A study of Mus musculus with 3 samples.

Results

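A set of 10 secreted or matrix genes of the TGF-beta, activin and GDF family and their extracellular partners were followed across the cell classes of the newborn mouse sinoatrial node region. The 10 genes, of 28001 features measured, were taken by symbol from the gene tables and each stood for 1 Ensembl ID. They are the activin subunits Inhba (ENSMUSG00000041324) and Inhbb (ENSMUSG00000037035), Fst (ENSMUSG00000021765), which encodes follistatin, and the follistatin-like gene Fstl1 (ENSMUSG00000022816). With them are the ligands Tgfb1 (ENSMUSG00000002603), Tgfb2 (ENSMUSG00000039239) and Tgfb3 (ENSMUSG00000021253) and the matrix protein gene Tgfbi (ENSMUSG00000035493). The last ones are the ligands Gdf10 (ENSMUSG00000021943) and Gdf15 (ENSMUSG00000038508). Fst, Fstl1 and Tgfbi are not ligands of this family, although they were grouped with them.

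The cells came from ICR mice at postnatal day 2 that carried HCN4H2BGFP, a reporter allele in which Hcn4, which encodes a pacemaker channel, drives a nuclear green fluorescent protein. All 3 groups shared strain, genotype and age, and each was a single 10x Genomics library. Cells of the node region were sorted by the reporter into a GFP-positive and a GFP-negative library. The RA library was unsorted. Its title reads RA while its tissue label names the node region, so it is called RA here. A reporter read from Hcn4 marks the cells in which that gene is or was active, and these need not be pacemaker cells.

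TGF-beta ligands are secreted in a latent complex, are released by integrins or proteases, and signal through paired serine-threonine kinase receptors to Smad2 and Smad3. Activins are dimers of inhibin beta subunits that use related receptors, and follistatin binds and neutralises them. In the developing heart these signals are known for their part in the change of endocardium into valve mesenchyme and in the deposition of matrix by fibroblasts. Gdf15 is a stress-responsive ligand of the receptor Gfral, and Gdf10 is a divergent ligand of the family, also called BMP3B.

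The libraries held 3346, 3276 and 1450 barcodes and 50416748, 38204709 and 19975326 UMIs for GFP-positive, GFP-negative and RA. Filters kept 3289, 3032 and 1289 cells with median depths of 12429, 11417 and 14143 UMIs. The 3 reporter features had 2198 UMIs in the GFP-positive library against 19 and 14 in the other libraries. Cells were gated by counting how many of 6 markers of a class had a UMI, so a class is a range of marker counts and not a type. How many animals a library pools is not given in the sources used here. The GFP-positive library gave 2443 endothelial, 357 epicardial and 133 cardiomyocyte cells, and 119 of those cardiomyocytes had Shox2, a transcription factor of the node. The GFP-negative library gave 1531 fibroblasts, 183 leukocytes, 174 endothelial cells and 144 mural cells. The RA library gave 599 fibroblasts, 236 endothelial cells, 96 leukocytes and 55 cardiomyocytes. No gate took 327, 923 and 286 cells. Of 8072 barcodes, 36 occurred in 2 libraries.

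Levels are given as CPM, the UMIs of a gene as a share of all UMIs of a class in a library, scaled to a sum of 1000000. With 1 library a group there are no replicates, so no test and no p-value is given, and each interval is an exact 95% interval that covers counting error only. Between the unsorted RA library and the sorted ones, the sort, any difference in tissue and the library cannot be told apart. A gene was measured in a comparison when both sides together had at least 20 UMIs, and it was counted as higher or lower when its level differed by more than 2-fold. A fold is the ratio of the 2 CPM values as counted, while a log2 ratio has 0.5 UMIs added to each sum, so the 2 part ways where a side has few UMIs. Beside each count of members stands the share of all measured genes past 2-fold in that direction.

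Of the 10 genes, 8 matched an entry in the RefSeq promoter table (build GRCm38.p6, the C57BL/6J reference), and Fst and Tgfb3 did not. The 250 bases before the start of Inhba and Tgfb2 are shown because these 2 genes had like levels across classes, and those of Gdf10 because its highest level was in adventitial fibroblasts. Capitals mark matches, on either strand, to TATAAA (the TATA box), CAGAC (a Smad half-site), CACGTG (an E-box) or TGANTCA (an AP-1 site).
Inhba, chr13:16011601-16011850, plus strand: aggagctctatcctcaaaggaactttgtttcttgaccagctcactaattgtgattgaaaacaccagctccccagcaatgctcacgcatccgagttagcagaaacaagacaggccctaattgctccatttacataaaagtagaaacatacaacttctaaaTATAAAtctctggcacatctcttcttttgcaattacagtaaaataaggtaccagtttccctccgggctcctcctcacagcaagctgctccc
Tgfb2, chr1:186705990-186706239, minus strand: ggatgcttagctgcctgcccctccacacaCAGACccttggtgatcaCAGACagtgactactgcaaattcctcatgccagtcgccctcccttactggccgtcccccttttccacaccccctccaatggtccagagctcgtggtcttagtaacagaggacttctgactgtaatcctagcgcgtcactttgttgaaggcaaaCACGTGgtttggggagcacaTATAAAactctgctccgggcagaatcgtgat
Gdf10, chr14:33923337-33923586, plus strand: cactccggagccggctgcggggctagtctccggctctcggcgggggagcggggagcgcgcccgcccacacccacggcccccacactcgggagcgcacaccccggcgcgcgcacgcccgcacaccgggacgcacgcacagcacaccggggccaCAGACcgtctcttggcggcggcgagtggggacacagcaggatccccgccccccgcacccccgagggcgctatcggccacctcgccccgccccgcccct
TATAAA lies 31 to 26 bases before the start of Tgfb2 and 91 to 86 bases before that of Inhba, and 12.4% of the 32851 windows of this length in the table hold it. Tgfb2 has CAGAC at 2 places and CACGTG once, letters found in 42.2% and 6.02% of windows. None of these 3 windows holds TGANTCA, which 6.75% of windows do. The windows differ in base composition, with 43.2% G and C for Inhba, 53.6% for Tgfb2 and 78.8% for Gdf10, against a median of 52.4%. A match is a run of letters and not evidence that a factor binds there.

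Inhba encodes the subunit of activin A. In the GFP-positive library its level was 121 CPM in endocardial cells (114 to 128, 1084 UMIs in 648 cells), 83.4 CPM in venous cells (77.4 to 89.8) and 53.4 CPM in endothelial cells of no group. It was 7.00 CPM in arterial, 6.78 CPM in capillary and 4.48 CPM in lymphatic endothelial cells, so the groups fell into a high and a low set whose intervals lay far apart. Outside the endothelium Inhba was at 105 CPM in smooth muscle of the GFP-negative library (84.9 to 129), and this interval overlapped that of GFP-positive endocardial cells. Fibroblasts had 39.2 CPM in the GFP-negative and 33.8 CPM in the RA library. Cardiomyocytes had 2.77 CPM in the GFP-positive library, and leukocytes of the GFP-negative library had 1.32 CPM. The 2 UMIs of these leukocytes lay in macrophages, at 2.92 CPM.

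The endocardial level of Inhba depended on the library. It was 121 CPM in the GFP-positive library, 1.38 CPM in the GFP-negative library (1 UMI in 69 cells) and 0.780 CPM in the RA library (1 UMI in 112 cells). With 0.5 UMIs added to each sum, the log2 ratio of the GFP-positive level was 6.69 to RA (interval 4.79 to 12.58) and 5.87 to GFP-negative cells (3.97 to 11.76), 2 ratios that share the GFP-positive library. Over the alternatives that gave a value the log2 ratio to RA lay between 4.69 and 6.79, and a stricter gate, with 45 RA endocardial cells, gave none. After every cell was thinned to 4000 UMIs, 19.4% of GFP-positive endocardial cells had an Inhba UMI (16.5% to 22.7%), against 0.926% in RA (0.0234% to 5.05%) and 0 of 63 cells in the GFP-negative library. Without thinning the shares were 30.2%, 0.893% and 1.45%, and the cells had median depths of 11628, 11027 and 10151 UMIs. Leukocytes of the GFP-negative library had a UMI in 0.633% of thinned cells and 1.09% before thinning, at a median depth of 7846.0 UMIs.

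Of the 6 endocardial gate markers, Npr3, Tmem108, Cdh11 and Gata4 had like levels in all libraries. These markers chose the endocardial cells, so like levels are partly set by the gate. Npr3 was at 408, 455 and 558 CPM, Tmem108 at 412, 390 and 424 CPM and Cdh11 at 266, 230 and 231 CPM, for GFP-positive, GFP-negative and RA. Gata4 was at 100, 86.8 and 77.2 CPM and Nfatc1 at 83.5, 48.2 and 46.0 CPM. Other marker genes differed by more, with Cytl1 at 566, 160 and 108 CPM, the venous marker Vwf at 278, 70.3 and 56.2 CPM and the venous marker Rspo3 at 33.7, 0 and 1.56 CPM. Whether these cells share 1 identity was not tested. In GFP-positive endothelial cells Inhba was at 11.0 CPM where no endocardial marker had a UMI and at 146 CPM where all 6 had one. In RA endothelial cells it was at 0 to 3.59 CPM over the bins with 0 to 5 markers. Tgfbi was at 30.1 to 42.6 CPM with 0 to 3 markers and at 213 CPM with 6 in the GFP-positive library, and went from 171 CPM with 0 to 562 CPM with 4 and 429 CPM with 5 markers in RA.

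**Figure D1:**
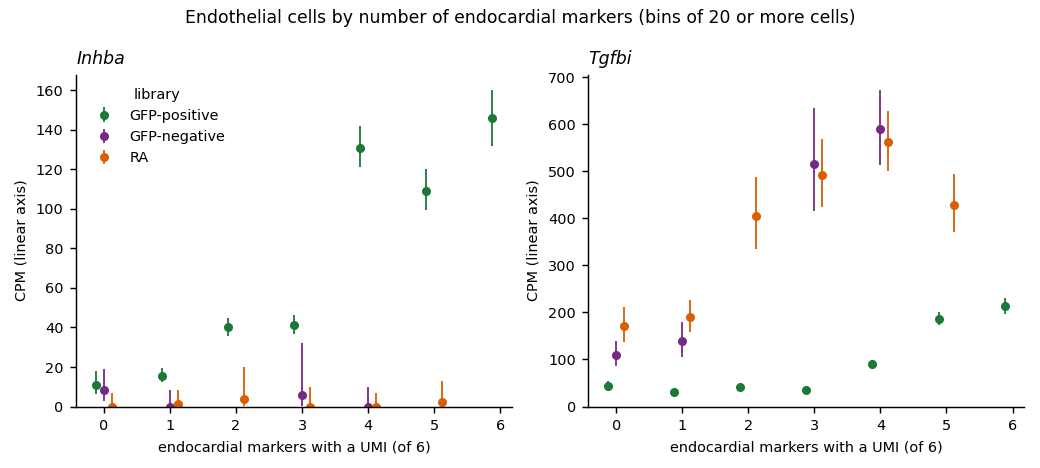
CPM (linear axis) of Inhba and Tgfbi in endothelial cells split by how many of 6 endocardial markers had a UMI, for each library; points are summed levels and bars 95% counting intervals, for bins of at least 20 cells. Inhba reached 146 CPM in the GFP-positive library and stayed at or under 3.59 CPM in RA, while Tgfbi was higher in RA than in GFP-positive cells in every bin both libraries share.

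Inhba UMIs sat in few cells. In GFP-positive endothelium 55 of 2443 cells had at least 10 Inhba UMIs, and they held 52.9% of all Inhba UMIs of the class. Of these 55 cells 28 were endocardial, 19 venous and 8 of no group, and none was lymphatic, arterial or capillary. Their median depth was 12320 UMIs against 11356 in the other endothelial cells. The highest single cell had 87 Inhba UMIs.

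The 10 UMI limit was set after the values were seen and these 55 cells were chosen by their Inhba level, so what follows is a description. Of the endothelial gate markers, Pecam1 was at 1110 CPM against 808 CPM in the other endothelial cells, Cdh5 at 310 against 398 CPM and Egfl7 at 798 against 1070 CPM. Of the 6 endocardial markers, Gata4 was at 209 against 51.4 CPM, Tmem108 at 260 against 133 CPM and Cdh11 at 201 against 83.3 CPM. Npr3 was at 197 against 130 CPM, Nfatc1 at 84.6 against 66.6 CPM and Cytl1 at 577 against 636 CPM. Of the 6 venous markers, Rspo3, an amplifier of Wnt signals, was at 319 against 69.4 CPM and Ephb4 at 244 against 132 CPM. Aplnr was at 154 against 122 CPM and Nr2f2 at 192 against 157 CPM. Vwf was at 563 against 562 CPM and Selp at 12.1 against 38.8 CPM. The capillary marker Gpihbp1 was at 18.1 against 163 CPM, and the arterial markers Dll4 and Hey1 had 0 UMIs and 1 UMI. Of the 6 fibroblast markers, Col1a1 was at 287 against 85.2 CPM, Lum at 87.1 against 25.1 CPM, Dcn at 287 against 274 CPM, Dpt at 1.21 against 0.596 CPM, Pdgfra at 6.05 against 24.5 CPM and Tcf21 at 0 against 0.119 CPM. The part of other cells in these values was not tested. One GFP-positive cell that passed no gate held 220 Inhba UMIs, 74.3% of the Inhba UMIs of all 327 ungated cells there.

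Inhbb, the other activin beta subunit, was close to the limit of detection, with 115 UMIs in all kept cells. It was highest in RA endocardial cells at 3.90 CPM (5 UMIs, 1.27 to 9.10) and reached 2.34 CPM in GFP-positive endocardial cells (1.45 to 3.57). All 5 highest levels of Inhbb were endothelial or endocardial and their intervals overlapped.

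Fst encodes follistatin, the secreted inhibitor of activin. Its highest levels among classes of at least 50 cells were in 2 fibroblast groups of the GFP-negative library. These were Tcf21-free fibroblasts (111 CPM, 99.0 to 123) and adventitial fibroblasts (101 CPM, 92.7 to 109), and these 2 intervals overlapped. Lymphatic endothelial cells of the GFP-positive library followed at 49.3 CPM (40.5 to 59.4) and smooth muscle of the GFP-negative library at 41.8 CPM. GFP-positive epicardial cells had 20.4 CPM and GFP-positive cardiomyocytes 14.2 CPM. Glial cells of the GFP-negative library, with only 32 cells, had 257 CPM (201 to 324).

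In the RA library Fst was at 20.9 CPM in Tcf21-free fibroblasts (9 UMIs in 36 cells, 9.54 to 39.6) and at 7.99 CPM in ungated cells. All RA fibroblasts together had 1.83 CPM (1.08 to 2.89) against 53.9 CPM in GFP-negative fibroblasts, a 29.5-fold difference (log2 4.84, 4.21 to 5.64). RA endothelial cells had 0 Fst UMIs in 236 cells. The GFP-positive level of 19.0 CPM was 18.4-fold higher when 3 UMIs are put in as the floor of the summed class. The interval of that ratio began at log2 3.90. In GFP-negative endothelial cells Fst was at 2.56 CPM, with 5 UMIs. Adventitial fibroblasts numbered 449 in the GFP-negative library and 16 in RA, and the part of this in the fibroblast ratio was not tested. Among fibroblasts with Tcf21, a gate that took 783 and 547 cells, Fst was 11.5-fold higher in the GFP-negative library, at 11.4 against 0.985 CPM (log2 3.46, 2.55 to 4.69).

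Fstl1, a follistatin-like glycoprotein of mesenchyme, was detected in 93.8% of kept cells. It was at 1914 CPM in Tcf21 fibroblasts of the GFP-negative library, 1889 CPM in smooth muscle and 1843 CPM in GFP-positive arterial endothelial cells, levels whose intervals overlapped from each to the next. The other GFP-positive endothelial groups ranged from 806 CPM in lymphatic and capillary cells to 1288 CPM in venous cells. GFP-positive cardiomyocytes had 129 CPM and RA cardiomyocytes 113 CPM. Leukocytes had 95.9 CPM in the GFP-negative and 50.2 CPM in the RA library. The fibroblast marker Dcn was at 212 and 157 CPM in the same cells, and the part of free RNA in these Fstl1 levels was not tested.

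Tgfb1, the TGF-beta ligand best known from blood and immune cells, was a gene of leukocytes and endothelium. RA leukocytes had 347 CPM (311 to 387) and GFP-negative leukocytes 284 CPM (258 to 312). Endothelial cells had 201, 254 and 254 CPM in the GFP-positive, GFP-negative and RA libraries. The 5 GFP-positive endothelial groups lay between 179 CPM in endocardial and 236 CPM in lymphatic cells. Fibroblasts had 25.4 and 31.6 CPM in the GFP-negative and RA libraries and cardiomyocytes 21.8 and 13.3 CPM in the GFP-positive and RA libraries. No comparison of a class between libraries moved Tgfb1 past 2-fold.

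Tgfb2, the ligand of endocardial cushions and vessel walls, was highest in smooth muscle at 256 CPM (223 to 291). Tcf21 fibroblasts had 136 CPM in RA and 122 CPM in the GFP-negative library. In GFP-positive endothelium it followed the split seen for Inhba, with 104 CPM in endocardial, 103 CPM in venous, 54.7 CPM in arterial, 38.1 CPM in capillary and 33.1 CPM in lymphatic cells. GFP-positive cardiomyocytes had 57.4 CPM against 21.2 CPM in RA, a 2.71-fold difference (log2 1.40, 0.69 to 2.28). Among thinned GFP-positive endothelial cells 119 had UMIs of both Inhba and Tgfb2, against 67.0 under independence of the 2 genes. Both genes differ between the groups pooled here, so pairing within cells cannot be told apart from differences between groups. Endocardial cells alone had 49 with both against 33.6, and lymphatic cells 0 against 0.222. In GFP-negative fibroblasts 56 cells had both against 48.8.

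Tgfb3 was a mesenchymal ligand in these data. Adventitial, Tcf21-free and Tcf21 fibroblasts of the GFP-negative library had 110, 106 and 84.0 CPM, and RA fibroblasts 65.8 CPM. Smooth muscle had 76.9 CPM and GFP-positive epicardial cells 44.3 CPM. Among GFP-positive endothelial groups only lymphatic cells came near these values, at 50.2 CPM (41.3 to 60.4), and the other 4 groups lay between 4.24 and 18.6 CPM.

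Tgfbi encodes a secreted adhesion protein of the matrix that TGF-beta induces in many cells. Among classes of at least 50 cells, endocardial cells had the highest levels, 492 CPM in the GFP-negative library (442 to 546) and 485 CPM in RA (448 to 525). Smaller endothelial groups had like levels. These were 547 CPM in 20 RA venous cells (454 to 652) and, in endothelial cells of no group, 579 CPM in 19 GFP-negative cells (469 to 708) and 405 CPM in 32 RA cells. The GFP-positive endocardial level was lower at 199 CPM (190 to 208), and the ratio to RA was log2 -1.29 (-1.42 to -1.15). Macrophages had 242 CPM in the GFP-negative and 191 CPM in the RA library. Lymphatic endothelial cells had 141 CPM and arterial endothelial cells 8.95 CPM. After thinning, 34.4% of GFP-positive and 68.5% of RA endocardial cells had a Tgfbi UMI, and 4.17% of RA cardiomyocytes did, at a median depth of 10226 UMIs. The unthinned shares were 51.2%, 80.4% and 9.09%.

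Gdf10 was highest in fibroblasts of the GFP-negative library. Adventitial fibroblasts of the GFP-negative library had 330 CPM (315 to 345), Tcf21-free fibroblasts 322 CPM (302 to 343) and Tcf21 fibroblasts 59.3 CPM (54.7 to 64.2). RA Tcf21 fibroblasts had 12.1 CPM (9.99 to 14.6). After thinning 51.0% of adventitial fibroblasts had a Gdf10 UMI against 5.06% of leukocytes of that library, and 67.0% and 7.10% did without thinning, where the median depths were 12157 and 7846.0 UMIs. Of 1448 thinned GFP-negative fibroblasts 133 had UMIs of both Gdf10 and Fst, against 56.5 under independence. Both genes were lower in Tcf21 fibroblasts than in the other fibroblast groups, so pairing within cells cannot be told apart from differences between groups. The only endothelial group near the level of GFP-negative Tcf21 fibroblasts was the lymphatic one, at 50.2 CPM. Of its 112 UMIs 35 came from 1 cell, and without that cell the level was 35.4 CPM.

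Gdf15 was highest in lymphatic endothelial cells of the GFP-positive library, at 238 CPM (218 to 259, 531 UMIs in 162 cells). No interval of another class overlapped it. After thinning 26.5% of lymphatic cells had a Gdf15 UMI (19.9% to 34.0%) against 1.54% of endocardial cells, and before thinning 38.9% and 4.48%, at median depths of 11308 and 11628 UMIs. Of the 21 GFP-positive endothelial cells with at least 10 Gdf15 UMIs 14 were lymphatic, 2 venous and 5 of no group. The gate's own markers, which chose these cells, were at 706 CPM for Mmrn1 and 244 CPM for Prox1, against 5.23 and 45.4 CPM in endocardial cells. Macrophages of the GFP-negative library came next at 77.4 CPM, and the receptor gene Gfral was at 0 UMIs in every class.

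**Figure D2:**
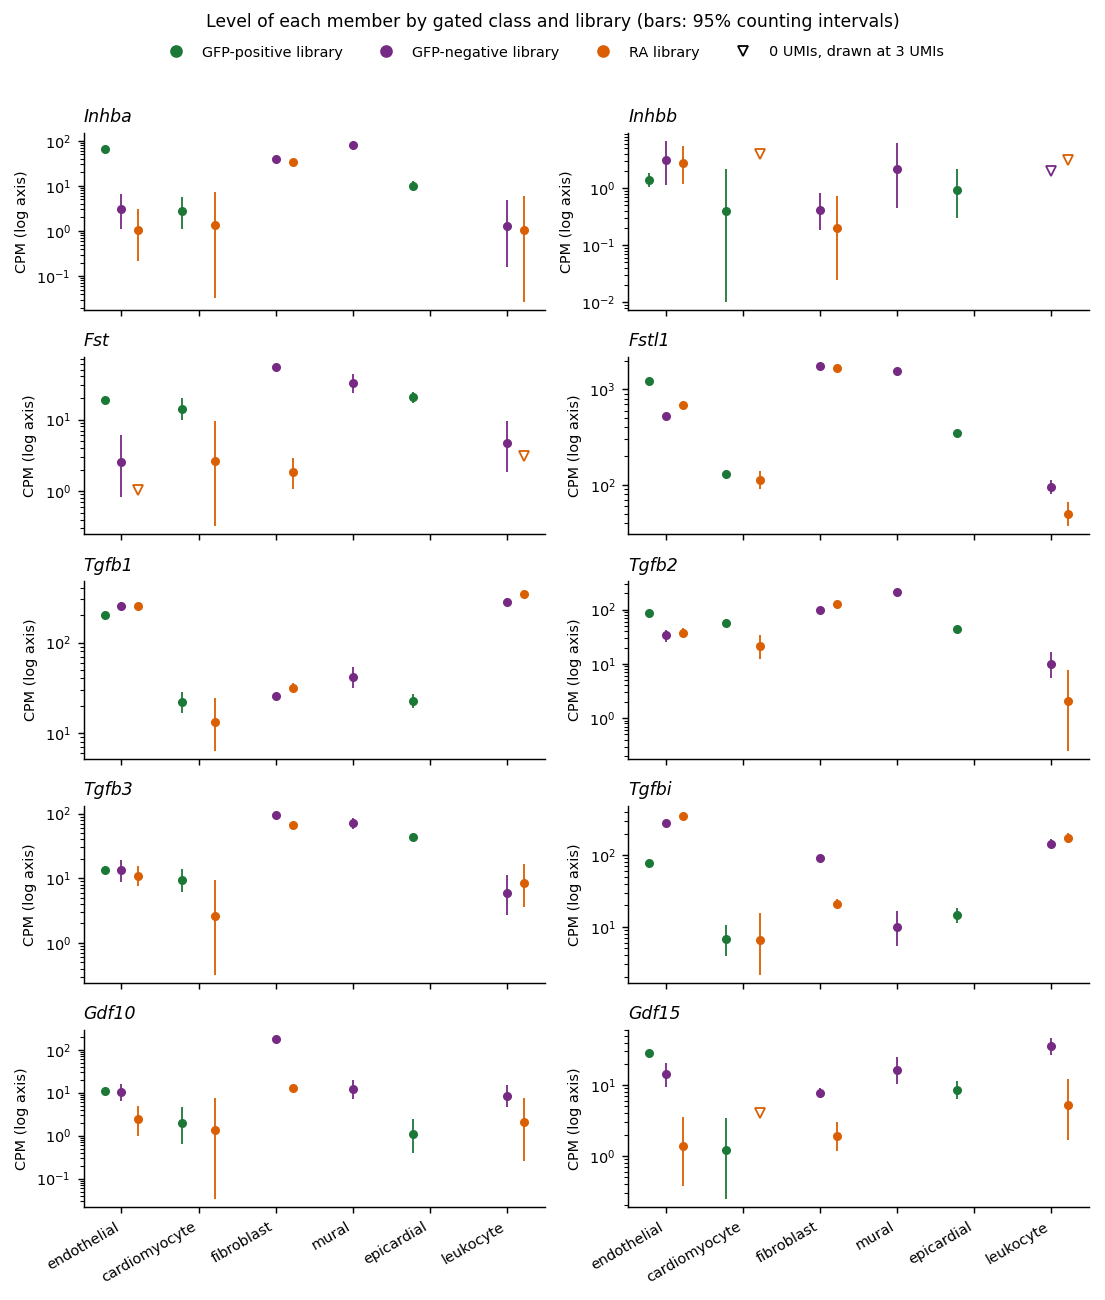
CPM (log axes, each with its own range) of the 10 genes in 6 gated classes with at least 50 cells, coloured by library, with 95% counting intervals as bars and open triangles for 0 UMIs drawn at the floor of 3 UMIs. Tgfb1 is high in endothelial cells and leukocytes and Tgfb3 in fibroblasts. Gdf10 is high in GFP-negative fibroblasts (182 CPM) and lower in RA fibroblasts (12.9 CPM). Inhba is high in GFP-positive endothelium (65.0 CPM) but not in RA endothelium (1.03 CPM).

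Within GFP-positive endothelium each group was compared with all other endothelial cells of that library. Endocardial cells had 3 of 10 members higher (4.73% of all genes were) and 2 lower (7.98% of all genes). Tgfbi was 5.69-fold higher (199 against 34.9 CPM) and Inhba 2.66-fold higher (121 against 45.3 CPM). Inhbb was 2.20-fold higher, on 21 UMIs, and was within 2-fold under a stricter gate (log2 0.83), a looser gate (0.86) and without the 5% of cells with the most UMIs (0.94). Gdf15 was 10.1-fold lower (3.67 against 37.3 CPM) and Gdf10 was 2.40-fold lower. A stricter gate that left 350 of the 648 endocardial cells gave a log2 ratio of 0.78 for Inhba, under 2-fold, in place of 1.41.

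Lymphatic cells had 4 of 10 members higher (6.93% of all genes) and 3 lower (13.7%). Gdf15 was 17.1-fold higher (log2 4.09, 3.91 to 4.28), Gdf10 6.18-fold, Tgfb3 4.52-fold and Fst 2.92-fold. Inhba was 15.5-fold lower (4.48 against 69.2 CPM) and Tgfb2 2.70-fold lower. The low value of Inhbb rested on 1 UMI.

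The remaining groups had no member past 2-fold upward. Arterial cells had 0 of 10 higher (4.67% of all genes) and 5 lower (10.5%), namely Inhba, Fst, Tgfb3, Tgfbi and Gdf10, of which Inhba fell 10.7-fold below the rest and Tgfbi 10.0-fold. Capillary cells had 0 higher (4.67%) and 7 of 10 lower (9.03%), all but Inhbb, Fstl1 and Tgfb1. Venous cells had 0 higher (1.82%) and 3 lower (5.31%), which were Tgfb3, Tgfbi and Gdf15. Under a stricter gate Tgfb3 was within 2-fold in the capillary (log2 -0.76) and venous (-0.90) groups, and in the venous group also with 5 UMIs added (-0.95). The median log2 ratio of the 10 members was -1.72 in capillary, -0.97 in arterial and 0.60 in lymphatic cells, against -0.12, -0.11 and -0.04 over all genes measured.

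**Figure D3:**
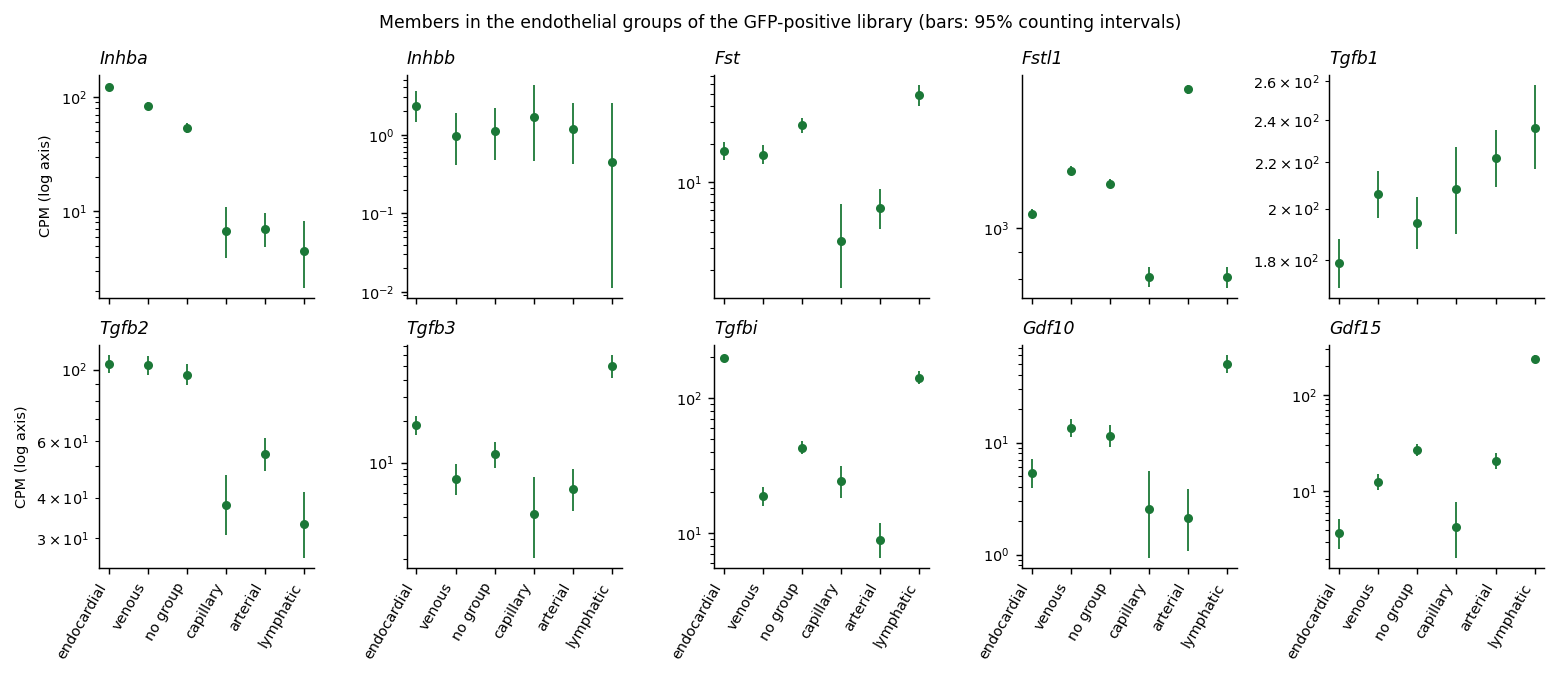
CPM (log axes, each with its own range) of the 10 genes in the endothelial groups of the GFP-positive library, with 95% counting intervals as bars. Inhba and Tgfb2 are high in endocardial and venous cells, while Fst, Tgfb3, Gdf10 and Gdf15 are highest in lymphatic cells.

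Endothelial cells were then compared between libraries, with GFP-positive cells set against RA and against GFP-negative cells, 2 comparisons that share the GFP-positive cells. Against RA 5 of 10 members were higher (13.9% of all genes) and 2 lower (5.45%). Inhba was 62.9-fold higher (65.0 against 1.03 CPM, log2 5.75, 4.43 to 8.25), Gdf15 20.7-fold, Gdf10 4.50-fold and Tgfb2 2.29-fold, with Fst as given above. Tgfbi was 4.58-fold lower (77.8 against 356 CPM), and Inhbb was lower on 8 RA UMIs. A stricter gate left Tgfb2 (log2 0.96) and Inhbb (-0.90) within 2-fold. The groups were unevenly filled. Lymphatic cells numbered 162 in the GFP-positive library, 2 in the GFP-negative library and 0 in RA. In the same order there were 653, 2 and 20 venous, 284, 4 and 8 arterial and 165, 78 and 64 capillary cells. All endothelial cells numbered 2443, 174 and 236. The part of this unevenness in the ratios of all endothelial cells between libraries was not tested.

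Against GFP-negative endothelial cells 4 of 10 members were higher (13.7%) and 2 lower (5.45%). Inhba was 21.1-fold higher (65.0 against 3.08 CPM), Fst 7.41-fold, Tgfb2 2.57-fold and Fstl1 2.34-fold, while Tgfbi was 3.57-fold lower. Gdf15 was within 2-fold, at 28.5 against 14.4 CPM, but 1 GFP-negative cell held 24 of the 28 UMIs there. Without that cell the GFP-negative level was 2.07 CPM. GFP-negative and RA endothelial cells differed little, with 2 of 7 measured members higher in the GFP-negative cells (1.73%) and 0 lower (2.87%). Those were Gdf15 and Gdf10. The Gdf15 call rested on 1 cell with 24 of its 28 UMIs, and without it the level was 2.07 CPM against 1.38 CPM in RA. Gdf10 was at 10.3 CPM there, beside 8.59 CPM in leukocytes of the same library. Under a stricter gate the log2 ratio of Gdf15 was 0.37 and Gdf10 no longer had 20 UMIs.

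The same libraries were compared within single endothelial groups. Endocardial GFP-positive cells had 2 of 10 higher than RA (10.5% of all genes), Inhba and Fst, and 1 lower (3.45%), Tgfbi. Against GFP-negative endocardial cells 3 of 10 were higher (10.8%), Inhba, Fst and Tgfb2, and Tgfbi was lower (3.35%). With 5 UMIs added Tgfb2 was within 2-fold there (log2 0.89). Between GFP-negative and RA endocardial cells 0 of 5 measured members were higher (1.96%) or lower (3.08%). The median log2 ratio of the members was 0.29 and 0.30, against 0.05 over all genes in both. Capillary GFP-positive cells had 2 of 4 measured members higher than RA (9.75%), Tgfb2 (3.59-fold) and Fstl1 (2.16-fold), and 1 lower (4.73%), Tgfbi, at 24.1 against 143 CPM. Against GFP-negative capillary cells 2 of 5 were higher (10.3%), Fstl1 (3.12-fold) and Tgfb2 (3.03-fold, log2 0.93 with a looser gate), and 1 was lower (3.02%), Tgfbi. Inhba was within 2-fold there, at 6.78 against 5.24 CPM. Between GFP-negative and RA capillary cells 0 of 4 were higher (2.01%) or lower (3.57%).

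Cardiomyocytes of the GFP-positive library, most of them with Shox2, were set against the 55 RA cardiomyocytes, none of which had a Shox2 UMI. Of 6 measured members 3 were higher (14.9% of all genes) and 0 lower (4.37%). These were Fst (14.2 against 2.65 CPM), Tgfb3 (9.49 against 2.65 CPM, with 2 RA UMIs and an interval of log2 -0.17 to 4.97 that spans equality) and Tgfb2, given above. With 5 UMIs added Fst (log2 0.81) and Tgfb3 (0.31) were within 2-fold. Endothelial cells were 74.3% of kept cells in the GFP-positive library and 18.3% in RA. In GFP-positive endothelium Fst was at 19.0 CPM, Tgfb3 at 13.6 CPM and Tgfb2 at 85.8 CPM. The part of free RNA in the cardiomyocyte values was not tested.

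Fibroblasts of the GFP-negative library had 4 of 9 measured members higher than RA fibroblasts (8.26%) and 0 lower (2.82%). The GFP-negative cells were sorted and the RA cells were not, so sort, tissue and library cannot be told apart here. Besides Fst, Gdf10 was 14.1-fold higher (182 against 12.9 CPM, log2 3.81, 3.56 to 4.09), Tgfbi 4.26-fold (90.4 against 21.2 CPM) and Gdf15 4.03-fold (7.77 against 1.93 CPM). The same 4 genes of 9 were higher among Tcf21 fibroblasts (4.15% of all genes) and 0 were lower (2.43%), by 4.88-fold for Gdf10, 3.05-fold for Tgfbi and 3.99-fold for Gdf15. In RA fibroblasts 1 cell held 71 of the 209 Tgfbi UMIs, and without it the level was 14.0 CPM. Inhba, Fstl1, Tgfb1, Tgfb2 and Tgfb3 lay within 2-fold between these libraries in both comparisons.

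**Figure D4:**
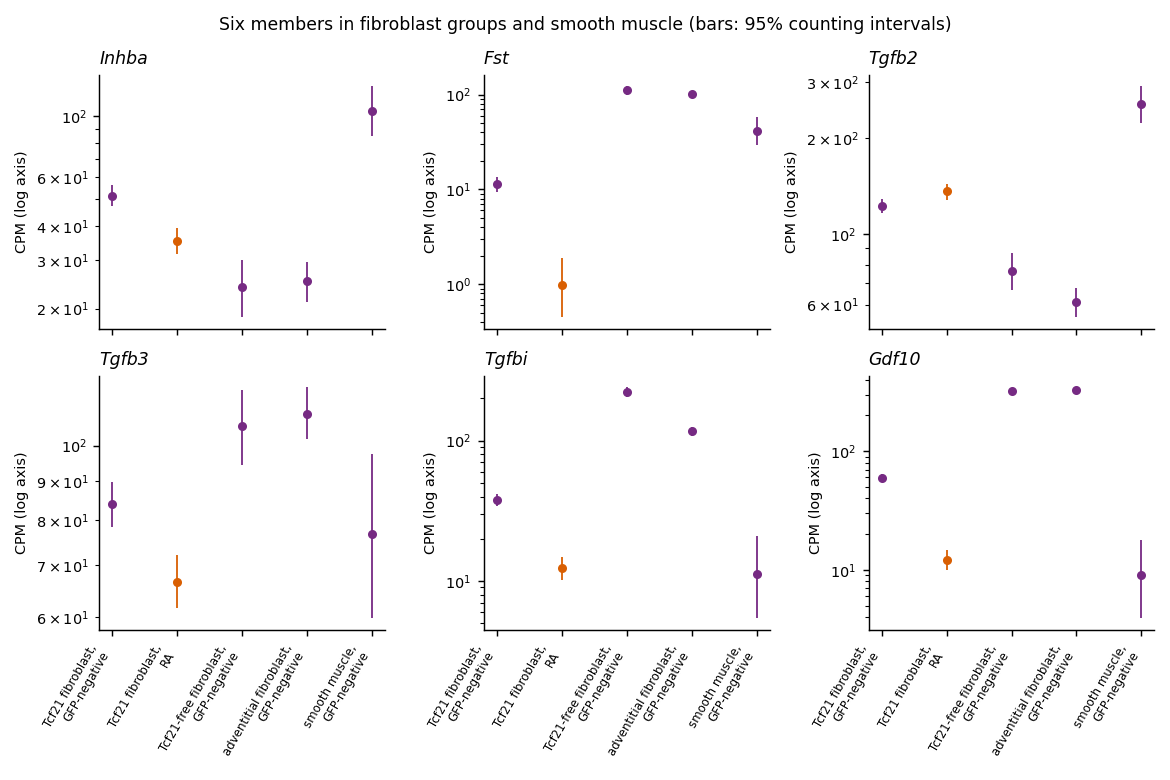
CPM (log axes, each with its own range) of 6 members in fibroblast groups and smooth muscle, coloured by library (purple GFP-negative, orange RA), with 95% counting intervals as bars. Fst and Gdf10 are highest in Tcf21-free and adventitial fibroblasts, and Inhba (105 CPM) and Tgfb2 (256 CPM) in smooth muscle.

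Macrophages numbered 74 in the GFP-negative and 74 in the RA library, with C1qa at 4026 and 4146 CPM. Of 4 measured members 2 were higher in the GFP-negative cells (4.21%) and 0 lower (3.54%). Gdf15 was at 77.4 against 6.33 CPM (log2 3.49, 2.30 to 5.29), on 53 UMIs of which 18 came from 1 cell; without that cell the level was 51.8 CPM. Fstl1 was at 123 against 53.2 CPM, and 31 of its 84 UMIs came from 1 cell, without which the level was 79.9 CPM. Its log2 ratio was 0.92 by the mean of cell CPM and 0.59 without the 5% of cells with the most UMIs. Tgfb1 (295 and 346 CPM) and Tgfbi (242 and 191 CPM) were within 2-fold.

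**Figure D5:**
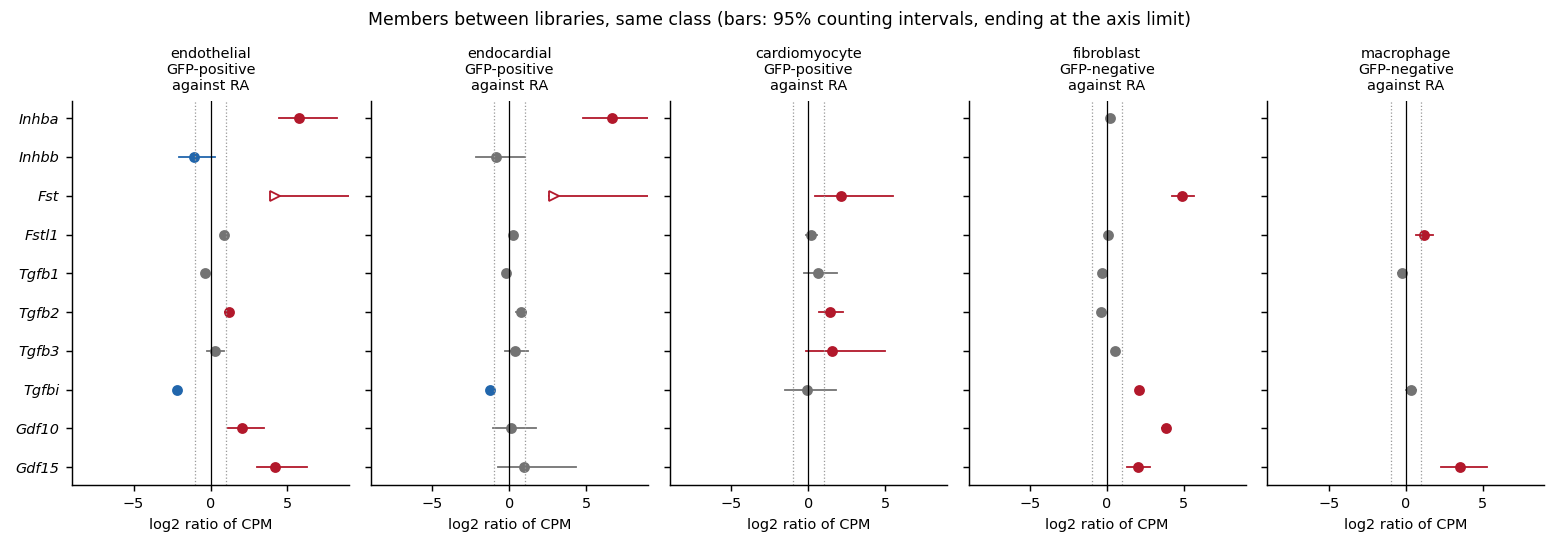
Log2 ratio of CPM for each measured member between libraries within a class, with 95% counting intervals as bars that end at the axis limit, dotted lines at 2-fold, red for higher and blue for lower; open arrowheads are lower bounds where 1 side had 0 UMIs. Inhba and Fst stand far to the right in endothelial cells, Fst and Gdf10 in fibroblasts and Gdf15 in macrophages, and Tgfbi lies to the left in endothelium.

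The unsorted RA library gives the division of labour among classes without a sort. Fibroblasts had 6 of 9 measured members higher than the other gated cells (11.4% of all genes) and 2 lower (17.1%). Inhba was 27.2-fold higher, Tgfb3 6.10-fold, Gdf10 5.65-fold, Tgfb2 4.31-fold and Fstl1 3.65-fold, with Fst higher on 18 UMIs, while Tgfb1 was 7.15-fold and Tgfbi 11.8-fold lower. Endothelial cells had 2 of 9 higher (11.3%), Tgfbi (11.0-fold) and Tgfb1 (4.50-fold), and 6 lower (17.2%). Among the lower ones were Inhba at 1.03 against 28.6 CPM and Fst with 0 UMIs. Fst was 1.65-fold lower with 3 UMIs put in as the floor, and the interval of its ratio ended at log2 -0.29. The fibroblasts make up most of the cells that the other classes were set against.

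RA leukocytes had 2 of 9 higher (12.1%), Tgfb1 (4.46-fold) and Gdf15, the latter on 5 UMIs, and 6 lower (33.7%). RA cardiomyocytes had 1 of 9 higher (13.8%), Fst on 2 UMIs, and 8 lower (31.7%). The low calls of Fst in leukocytes and Gdf15 in cardiomyocytes rested on 0 UMIs with 20 and 28 UMIs elsewhere, too few to bound a difference from the floor. Among the other low members of cardiomyocytes, Fstl1 was 11.9-fold, Tgfb1 7.54-fold and Tgfb2 4.73-fold lower, while Inhba and Gdf10 rested on 1 UMI and Tgfb3 on 2. With 5 UMIs added the log2 ratio of Gdf10 was -0.36 in cardiomyocytes and -0.49 in leukocytes, and those of Fst were -0.30 in endothelial cells and 0.69 in fibroblasts. In endothelial cells Fstl1 was within 2-fold with a looser gate (-0.97) and by the mean of cell CPM (-0.94). Without the barcodes found in 2 libraries Fst no longer had the 20 UMIs needed in the RA comparisons of a class with the rest, and no other call of a member changed.

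Receptors and coreceptors of the pathway came from a list of 11 genes. In GFP-positive endocardial against other endothelial cells 1 of 9 measured receptors was higher (4.73% of all genes) and 1 lower (7.98%). The higher one was Eng, the endothelial coreceptor endoglin, at 1133 against 481 CPM, and the lower one was Acvrl1, the type I receptor that pairs with it, at 23.7 against 78.6 CPM. In arterial cells the order was turned, with Eng at 297 against 714 CPM and Acvrl1 at 123 against 54.0 CPM. Tgfbr2, the type II receptor of TGF-beta, was highest in GFP-positive lymphatic cells at 187 CPM. In GFP-positive against RA cardiomyocytes 5 of 8 measured receptors were higher (14.9% of all genes) and 0 lower (4.37%), Eng among them at 49.1 against 17.2 CPM. GFP-positive endothelial cells had far higher Eng levels, and the part of free RNA in the cardiomyocyte value was not tested.

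Genes of latency and activation, 13 in the list, store and release the ligands. In lymphatic cells 3 of 12 measured were higher (6.93% of all genes) and 2 lower (13.7%). Thbs1, which can activate latent TGF-beta, was at 148 against 27.3 CPM, and Lrrc32, which tethers the latent form to the cell surface, at 106 against 33.8 CPM. Mmp2, a matrix protease, was at 56.9 against 229 CPM. Between GFP-positive and RA endothelial cells 4 of 12 were higher (13.9% of all genes) and 1 lower (5.45%). Ltbp3, a latent TGF-beta binding protein, was at 74.9 against 15.8 CPM and Lrrc32 at 38.5 against 5.51 CPM. Nrros, which tethers latent TGF-beta on macrophages, reached 156 CPM in GFP-negative macrophages, and Ltbp2 was at 34.3 against 5.89 CPM in GFP-negative against RA fibroblasts.

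Of 7 other extracellular inhibitors, Bambi, a pseudoreceptor, was highest in GFP-positive Shox2 cardiomyocytes at 207 CPM. Fstl3, a follistatin-like inhibitor, and Vasn, which binds TGF-beta, were highest in smooth muscle at 97.2 and 75.7 CPM. Cd109, a TGF-beta coreceptor that dampens signalling, was at 3.08 CPM in GFP-positive and 21.7 CPM in RA endothelial cells. Of 14 other ligands and subunits few were detected well. Inha, the inhibin alpha subunit, reached 28.3 CPM in GFP-positive Shox2 cardiomyocytes, Lefty1, an antagonist of Nodal, reached 20.4 CPM in GFP-positive epicardial cells and Gdf3 reached 16.5 CPM in RA macrophages.

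Of 11 Smads and their regulators, 3 were lower in lymphatic (13.7% of all genes) and 1 in endocardial cells (7.98%) and none was past 2-fold in the arterial, capillary or venous group. Tgif1 and Skil, which repress Smad targets, were highest in GFP-negative leukocytes (166 CPM) and RA macrophages (128 CPM), and Ski in GFP-positive arterial cells (112 CPM). Pmepa1, a feedback inhibitor that TGF-beta induces, was at 62.7 CPM in GFP-positive and 15.5 CPM in RA endothelial cells, and at 31.7 against 6.24 CPM within the endocardial gate. GFP-negative endocardial cells had 23.4 CPM. No other Smad regulator of the 11 was past 2-fold between GFP-positive and RA endocardial cells.

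Known targets of TGF-beta moved in both directions. In GFP-positive against RA endothelial cells 5 of 9 targets were higher (13.9% of all genes) and 1 lower (5.45%). Lox, a collagen crosslinking enzyme, was at 137 against 6.89 CPM and the matrix gene Fn1 at 1218 against 467 CPM. Postn, a matricellular protein, was lower at 157 against 598 CPM. RA leukocytes had 311 CPM of Postn and RA fibroblasts 5609 CPM, and the part of free RNA in the RA endothelial value was not tested. In endocardial against other GFP-positive endothelial cells Postn was higher (387 against 76.0 CPM) and 4 of 9 targets were lower (7.98% of all genes), with Lox at 50.3 against 168 CPM.

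The genes whose levels were most like those of a member were found by Pearson's r of log2(CPM + 10) over 31 classes and groups. These are nested and come from 3 libraries, so r is a description and has no p. Inhba was most like Ccdc68 (r = 0.83), Vcan (0.82), a proteoglycan of the cardiac cushions, and Nfatc4 (0.82). Gdf10 was most like C1qtnf3 (0.93), Agtr2 (0.92) and Osr2 (0.92), and Tgfb3 most like Islr (0.94). Tgfb2 was most like Pde3a (0.95), Tgfb1 most like Abi3 (0.97), Fstl1 most like C1qtnf6 (0.97) and Fst most like Spsb1 and Bag3 (both 0.82). Tgfbi was most like Rab3il1 (0.83) and Gdf15 most like Mpv17l2 (0.79). Among the members themselves Fstl1 and Tgfb2 (0.84) and Inhba and Tgfb2 (0.81) were the most alike, and Tgfb1 and Tgfb3 (-0.54) the least.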

How the data were processed

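Single-cell libraries of 3 groups were analysed, 1 library each. The values are raw UMI counts, deposited by the authors as 1 gene-by-barcode matrix a library; Cell Ranger and the build mm9 are named per the submitters' processing notes, with no version of Cell Ranger. The members, marker sets and pathway lists were chosen with earlier results of these data known.

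A barcode was kept if it had 500 genes or more and no more than 50% of its UMIs from mitochondrial genes. A cell took the class, of 8, with at least 3 of 6 markers carrying a UMI and at least 2 more than any other class; an endothelial group needed 2 markers and a lead of 1. Cells with mixed markers were dropped by that lead, and no doublet caller was run. The endothelial gate took 2173, 2443 or 2528 GFP-positive cells and the endocardial gate 350, 648 or 665 under the stricter, main and looser rule; RA endocardial cells numbered 45, 112 or 125 and GFP-negative fibroblasts 1057, 1531 or 1878. A class in a library needed 50 cells.

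UMIs were summed per class and library. Intervals are exact at 95% (Poisson for CPM, conditional binomial for ratios, Clopper-Pearson for shares). Ratios had 0.5 UMIs added to each sum. Shares were also taken after thinning each cell to 4000 UMIs (seed 0), leaving out shallower cells: 11 of 174 GFP-negative and 11 of 236 RA endothelial cells, 0 of 2443 GFP-positive ones, 83 GFP-negative and 18 RA fibroblasts, and 25 GFP-negative and 9 RA leukocytes.

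All 10 members are named. Pathway genes are named when past 2-fold at 20 CPM or more, the largest first and at most 8 a comparison, or as the 3 highest of their list; fewer are printed where values repeat. Pathway lists held 67 genes, of which 65 matched 1 ID each; Ltbp4 and Tgfb1i1 were left out. There were 22 comparisons and 9 alternatives. The calling of ratios was tested on simulated counts that held counting error only, with no spread between cells or libraries. That test does not bear on calls that rest on a few cells. Python 3.11.15, numpy 2.4.6, scipy 1.17.1, pandas 2.3.3 and matplotlib 3.10.9 were used. Comparisons that needed GFP-negative cardiomyocytes or RA mural cells were not made, since these classes held 42 and 15 cells.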

Additional observations from a re-analysis of the deposited data

Results flagged for a closer look

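Cells of the RA library that passed no gate held more Fst than any gated class of at least 50 cells there, at 7.99 CPM against at most 2.65 CPM. The 36 gated Tcf21-free fibroblasts of RA had 20.9 CPM. They were in no comparison of the report. Of the 33 Fst UMIs of these 286 cells 19 came from 1 cell, and without it the level was 3.40 CPM.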

How the results depend on the processing

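No paired analysis was possible because each group has 1 library. Of 870 recomputed log2 ratios over 101 called ratios of members, 830 kept their direction and call, 26 came within 2-fold, 10 stayed past 2-fold but had under 20 UMIs, and 4 changed direction. The 4 were Fst in RA cardiomyocytes with a looser gate (-0.07) and, with 5 UMIs added to each sum, Inhbb in lymphatic cells (0.73), Gdf15 in RA cardiomyocytes (1.48) and Fst in RA leukocytes (1.52). Under the gate and settings of the report each had 0 to 2 UMIs on 1 side.

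Counts of members past 2-fold moved by over 1.5 times in 12 of 187 values over 22 comparisons, and those of pathway genes in 25 of 187. With a stricter gate the members numbered 3 in endocardial against other endothelial cells and 0 in GFP-negative against RA endothelium, and pathway genes 7 in arterial, 4 in venous and 1 in Tcf21 fibroblasts. With a looser gate there were 5 members in GFP-positive against RA endocardial cells, and pathway genes numbered 2 in GFP-negative against RA endothelium, 7 in GFP-negative against RA capillary cells, 1 in Tcf21 fibroblasts and 3 in macrophages. With the mean of cell CPM there was 1 member in macrophages, and pathway genes numbered 4 in venous cells, 4 in GFP-negative against RA endocardial cells and 1 in Tcf21 fibroblasts. Without the 5% of cells with the most UMIs there was 1 member in macrophages and 0 pathway genes in GFP-negative against RA endothelium. With 5 UMIs added GFP-positive against RA cardiomyocytes had 1 member and 10 pathway genes, and RA cardiomyocytes against other cells 23 pathway genes; pathway genes numbered 1 in GFP-negative against RA endocardial cells and, in capillary cells, 10 in GFP-positive against GFP-negative and 0 in GFP-negative against RA. With no minimum of UMIs members numbered 4 in GFP-negative against RA endothelium, 1 in GFP-negative against RA endocardial cells, 5 in macrophages and, in capillary cells, 6 in GFP-positive against RA, 5 in GFP-positive against GFP-negative and 4 in GFP-negative against RA, and pathway genes 6 in venous cells, 10 in GFP-negative against RA endothelium, 15 in endocardial GFP-positive against GFP-negative cells, 10 in GFP-negative against RA endocardial cells, 25 in GFP-positive against GFP-negative and 12 in GFP-negative against RA capillary cells, 7 in fibroblasts, 8 in Tcf21 fibroblasts and 16 in macrophages. The causes were not tested. These counts join both directions, and the share of all genes past 2-fold under each setting is not given here. They describe how counts depend on the settings and are not a result about the members.

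Comparisons with under 50 cells on a side under a setting gave no value, in 11 cases. Leaving out barcodes found in 2 libraries was chosen after seeing the data. Few UMIs, and so wide intervals, lie behind Inhbb in all classes, Fst in RA and Inhba, Fst, Tgfb3, Tgfbi and Gdf10 in RA cardiomyocytes, and nothing here measures the spread between animals.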
